A study of Mus musculus with 18 samples.

Results

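The genes described here make cholesterol and fatty acids, regulate that synthesis, or carry cholesterol within and out of the cell. The set was defined by gene name and not by a rule on measured values, but with earlier results of these data known. It lists 35 genes, of which 34 had a probe set carrying their symbol alone. Acat2 was not analysed here. One probe set stood for each gene, the brightest on average over the 18 arrays. All 34 genes were among the 13770 genes tested, of 18194 genes measured. A gene was tested when its level was above 4.06 on the log2 scale, the 40th percentile of all values, on at least 2 arrays. Scd1 passed this filter only on 3 ex vivo memory arrays and on memory medium array 2, so its differences from ex vivo memory cells are a description and no support for a change.

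The arrays (Affymetrix, mouse) measured RNA of CD8 T cells sorted from the spleens of F5 T cell receptor transgenic mice on the C57Bl/6 background. Memory cells, called TIM in the labels, came from F5 mice given 2 immunisations with the NP68 peptide and were taken at day 45; naive cells came from F5 mice for which no immunisation is given. No age of the mice is given. Cultured cells spent 20 h with IL-4 at 20 ng/mL, IL-7 at 10 ng/mL, both or neither. Memory cells were measured with IL-4 and IL-7, with IL-4 alone, with IL-7 alone, in medium alone (2 arrays each) and ex vivo (4 arrays). Naive cells were measured with IL-4 and IL-7, with IL-7 alone and ex vivo (2 arrays each). Because every memory cell here carries 1 transgenic receptor and was primed by a peptide, the groups are a model of 1 kind of memory cell. Ex vivo arrays are titled biological replicates and cultured arrays only replicates, so the p-values rest on a spread between arrays that for cultured cells may be technical.

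Cholesterol is built from acetyl-CoA through mevalonate to isoprenoid units, which are joined to squalene, closed into the sterol ring and trimmed to cholesterol. When sterol in the endoplasmic reticulum is low, SCAP escorts the SREBP transcription factors to the Golgi, where they are cut and released to switch on the enzyme genes, while the INSIG proteins hold SCAP back when sterol is plentiful. Excess sterol activates LXR receptors, which raise the efflux pumps Abca1 and Abcg1. T cells that enter growth are known to raise sterol and fatty acid synthesis, IL-7 keeps resting T cells alive, and IL-4 signals through STAT6.

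The promoters of 4 genes are shown because these genes passed the test in at least 1 single comparison of cells with and without IL-4 and in the average of those comparisons, and are in the RefSeq promoter table (GRCm38.p6): Mvd at chr8:122443423-122443672 (minus strand), Msmo1 at chr8:64733579-64733828 (minus strand), Ebp at chrX:8193513-8193762 (minus strand) and the first of 3 start sites of Dhcr7 at chr7:143822917-143823166 (plus strand). Each is the 250 bases before the start site, 5′ to 3′ on the gene's strand, and capitals mark CCAAT or its reverse complement ATTGG, the box that the factor NF-Y binds.
Mvd: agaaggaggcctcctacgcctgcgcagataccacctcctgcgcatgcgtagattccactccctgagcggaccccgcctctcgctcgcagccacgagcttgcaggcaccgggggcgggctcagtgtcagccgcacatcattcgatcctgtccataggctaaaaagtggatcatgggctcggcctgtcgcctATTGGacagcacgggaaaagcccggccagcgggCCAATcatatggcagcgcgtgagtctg
Msmo1: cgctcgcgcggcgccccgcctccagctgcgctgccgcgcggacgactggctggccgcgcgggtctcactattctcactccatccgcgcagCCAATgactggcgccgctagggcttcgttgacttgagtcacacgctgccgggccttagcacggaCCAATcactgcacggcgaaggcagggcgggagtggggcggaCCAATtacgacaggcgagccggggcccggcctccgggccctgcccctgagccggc
Ebp: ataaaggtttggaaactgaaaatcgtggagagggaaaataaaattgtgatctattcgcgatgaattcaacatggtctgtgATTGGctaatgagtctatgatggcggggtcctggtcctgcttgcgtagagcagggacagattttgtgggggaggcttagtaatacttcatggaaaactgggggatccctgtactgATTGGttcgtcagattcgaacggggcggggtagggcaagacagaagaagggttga
Dhcr7: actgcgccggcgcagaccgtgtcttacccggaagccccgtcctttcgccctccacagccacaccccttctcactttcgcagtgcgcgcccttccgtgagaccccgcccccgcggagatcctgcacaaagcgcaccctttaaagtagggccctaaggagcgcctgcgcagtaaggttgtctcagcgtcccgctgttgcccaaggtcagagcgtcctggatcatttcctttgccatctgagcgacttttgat

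The Mvd window holds 2 CCAAT boxes in opposite orientation, the Msmo1 window 3 and the Ebp window 2, and the Dhcr7 window printed holds none. RefSeq promoters were found for 26 of the 35 genes, at 34 start sites. On both strands, with each motif searched on its own so that matches could overlap, CCAAT lay in 20 of these 34 windows (58.8%), against 33.8% of all 32851 windows of the same length. The GC box GGGCGG lay in 73.5%, against 32.7% of all windows. The sterol regulatory element TCACNCCAC lay in 1 window, that of Hmgcs1 (2.94%, against 1.05%), and the STAT6 motif, TTC and GAA with 4 free bases between them, in none (0%, against 5.85%). These matches describe letters in the windows only.

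One array goes against its label, and this bears on each result that uses memory cells in medium. Of all arrays, ex vivo memory array 2 was the closest (r = 0.995) to the one labelled memory medium replicate 2, whose levels of Fads1 (6.72), Abcg1 (8.79) and Cyp51 (8.65) lay beside or within the ex vivo memory range while those of medium array 1 (7.96, 7.74 and 6.47) did not. Calls that rest on it, and average differences that it moves by over 1.5 times, are given with and without it, and since it also enters the pooled spread, its removal changed some other calls. Over the series, 7 of 8 CD8 T cell markers were on the array, all above the filter value, with a mean level of 11.5 to 12.2 on every array. The mean level of B cell markers was 4.73 to 5.66, of myeloid markers 4.17 to 4.77, of NK cell markers 3.21 to 4.69, of CD4 T cell markers 5.21 to 5.80, of platelet markers 4.94 to 5.57 and of red cell precursor markers 3.78 to 7.44. No marker reads exactly 0 on this scale. Of 6 memory CD8 cell markers listed, 5 were on the array, with a mean level of 9.33 to 10.18 on memory arrays. On naive arrays it was 6.55 and 6.75 ex vivo, 5.22 and 6.78 with IL-7, and 5.67 and 7.11 with IL-4 and IL-7. The 2 arrays of each naive culture thus differed in these markers, and the part of this in the results with naive cultures was not tested. The 3' minus 5' difference of the Gapdh control probe sets, a sign of RNA quality, was 2.67 to 3.36 on cultured arrays other than medium array 2, 2.35 on medium array 2 and 2.07 to 2.69 on ex vivo arrays. For the Actb control it was 1.63 to 2.25, 1.87 and 1.95 to 2.07 on the same arrays. Over both cell types together, cultured and ex vivo arrays overlapped. Within memory cells they did not overlap for Gapdh. There the Gapdh difference was 2.81 to 3.36 on cultured arrays other than medium array 2 and 2.07 to 2.62 ex vivo.

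The 18 enzymes from acetoacetyl-CoA to cholesterol, 7 of the mevalonate steps and 11 of the squalene to cholesterol steps, were first followed as a median over genes on each array, relative to the ex vivo mean of the same cell type. Memory cells stood 0.50 and 0.56 above their ex vivo level with IL-4 and IL-7 and 0.65 and 0.60 with IL-4 alone. Without IL-4 they stood near that level, at 0.10 and 0.05 with IL-7 and -0.02 and -0.08 in medium. Naive cells stood at 0.79 and 0.91 with IL-4 and IL-7 and at 0.61 and 0.66 with IL-7 alone. The median of the synthesis genes was therefore above the ex vivo level in naive cells in IL-7 alone, and in memory cells on the arrays with IL-4. Not every gene followed it: 16 and 14 of the 18 were above their ex vivo level on the naive IL-7 arrays, and 15 or 16 on each memory array with IL-4. The same median over all genes tested lay between -0.07 and 0.10 on every array.

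**Figure D1:**
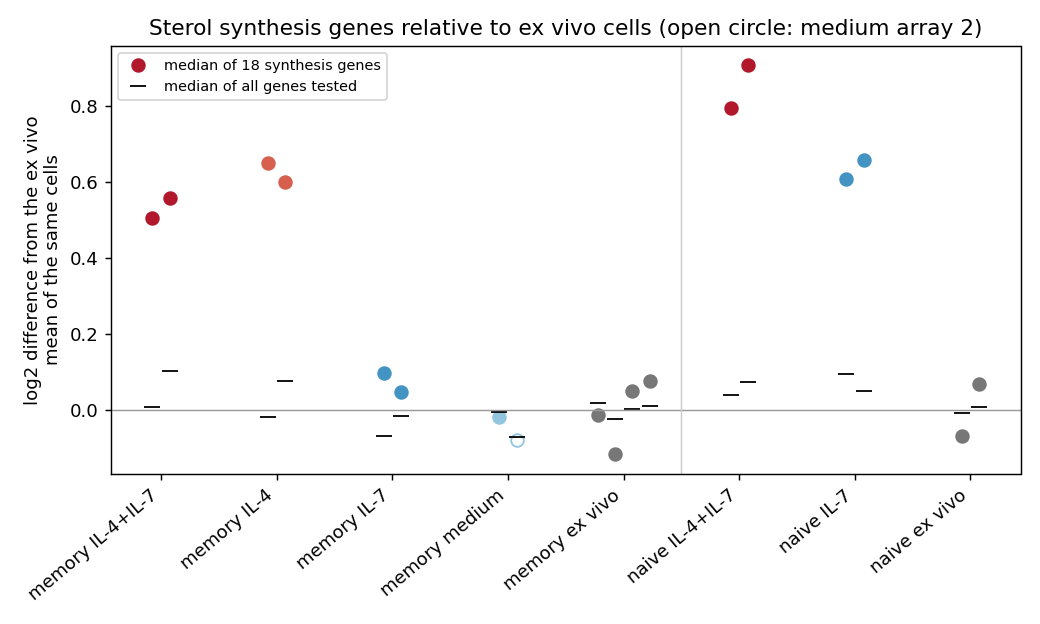
Median over the 18 sterol synthesis enzymes on each array (vertical axis, log2 relative to the ex vivo mean of the same cell type), by group, with the open circle for medium array 2. Memory arrays with IL-4 lie between 0.50 and 0.65 and memory cultures without IL-4 between -0.08 and 0.10, while all 4 cultured naive arrays lie between 0.61 and 0.91.

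In memory cells kept in IL-7, addition of IL-4 raised 4 of the 34 genes and lowered none (limma, Benjamini-Hochberg adjusted p under 0.05 over all genes tested), where 1.81% of all genes tested passed (1.21% higher and 0.595% lower). All 4 were listed among the 18 synthesis enzymes: Mvd, which decarboxylates mevalonate diphosphate, rose 3.40-fold, Fdps, which makes farnesyl diphosphate, rose 2.08-fold, Dhcr7, which carries out a last reduction to cholesterol, rose 1.88-fold, and Acat1, which joins acetyl-CoA units in the mitochondrion and serves ketone body metabolism more than sterol synthesis, rose 1.53-fold. Each of the 18 synthesis enzymes had a difference above 0, as had 60.2% of all genes tested. Their median was 0.58, against 0.08 over all genes tested. Of the 18, 9 had an unadjusted p under 0.05, as had 14.2% of all genes tested. The mean level of the 4 platelet markers, 3 of them above the filter value, was 5.39 to 5.44 with IL-4 and IL-7 and 5.05 to 5.12 with IL-7, and their part in the result was not tested.

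Mvd had the largest difference of the 34 genes in this comparison. Its level was 9.25 and 9.37 in memory cells with IL-4 and IL-7 and 8.64 and 8.78 with IL-4 alone, against 7.56 and 7.53 with IL-7 and 7.18 and 6.79 in medium. All 4 memory arrays with IL-4 lay over 1 log2 unit above all 4 cultured without it, and the ex vivo memory arrays (7.22, 7.0, 7.58 and 7.26) lay close to the cultures without it. In IL-7 the log2 difference was 1.76 (SE 0.24, adjusted p = 0.00115), and it passed in each of the 18 fits that left out 1 array.

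Fdps read 7.51 and 7.44 in memory cells with IL-4 and IL-7 and 7.41 and 7.48 with IL-4 alone, against 6.24 and 6.61 with IL-7 and 6.66 and 6.53 in medium. The IL-4 groups again did not overlap the others, and in IL-7 the log2 difference was 1.06 (SE 0.22, adjusted p = 0.0214). Dhcr7 read 7.61 and 7.87 in memory cells with IL-4 and IL-7 and 7.44 and 7.48 with IL-4 alone, against 6.85 and 6.81 with IL-7 and 6.90 on both medium arrays. Its log2 difference in IL-7 was 0.91 (SE 0.21, adjusted p = 0.0366) and the groups did not overlap. Acat1 read 12.24 and 12.20 in memory cells with IL-4 and IL-7 and 12.32 and 12.30 with IL-4 alone, against 11.55 and 11.66 with IL-7 and 11.44 and 11.23 in medium. The groups did not overlap, and its log2 difference in IL-7 was 0.62 (SE 0.14, adjusted p = 0.0352). How many of all genes tested had groups apart was not counted. Here and below, a lack of overlap therefore only describes the values.

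The calls of these last 3 genes depend on single arrays. Without any 1 of the 4 arrays compared, the adjusted p was 0.0620 to 0.260 for Fdps, 0.0738 to 0.322 for Dhcr7 and 0.140 to 0.298 for Acat1. Through the pooled spread, Acat1 also missed without ex vivo memory array 4 or either naive IL-7 array (0.0525 to 0.0533), and Dhcr7 without ex vivo memory array 1, either naive IL-7 array or either memory IL-4 array (0.0532 to 0.0550). Without medium array 2, which is in neither group, 6 genes rose, adding Fdft1 (0.87, adjusted p = 0.0440) and Acaca (0.81, adjusted p = 0.0356), where 3.91% of all genes tested passed.

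**Figure D2:**
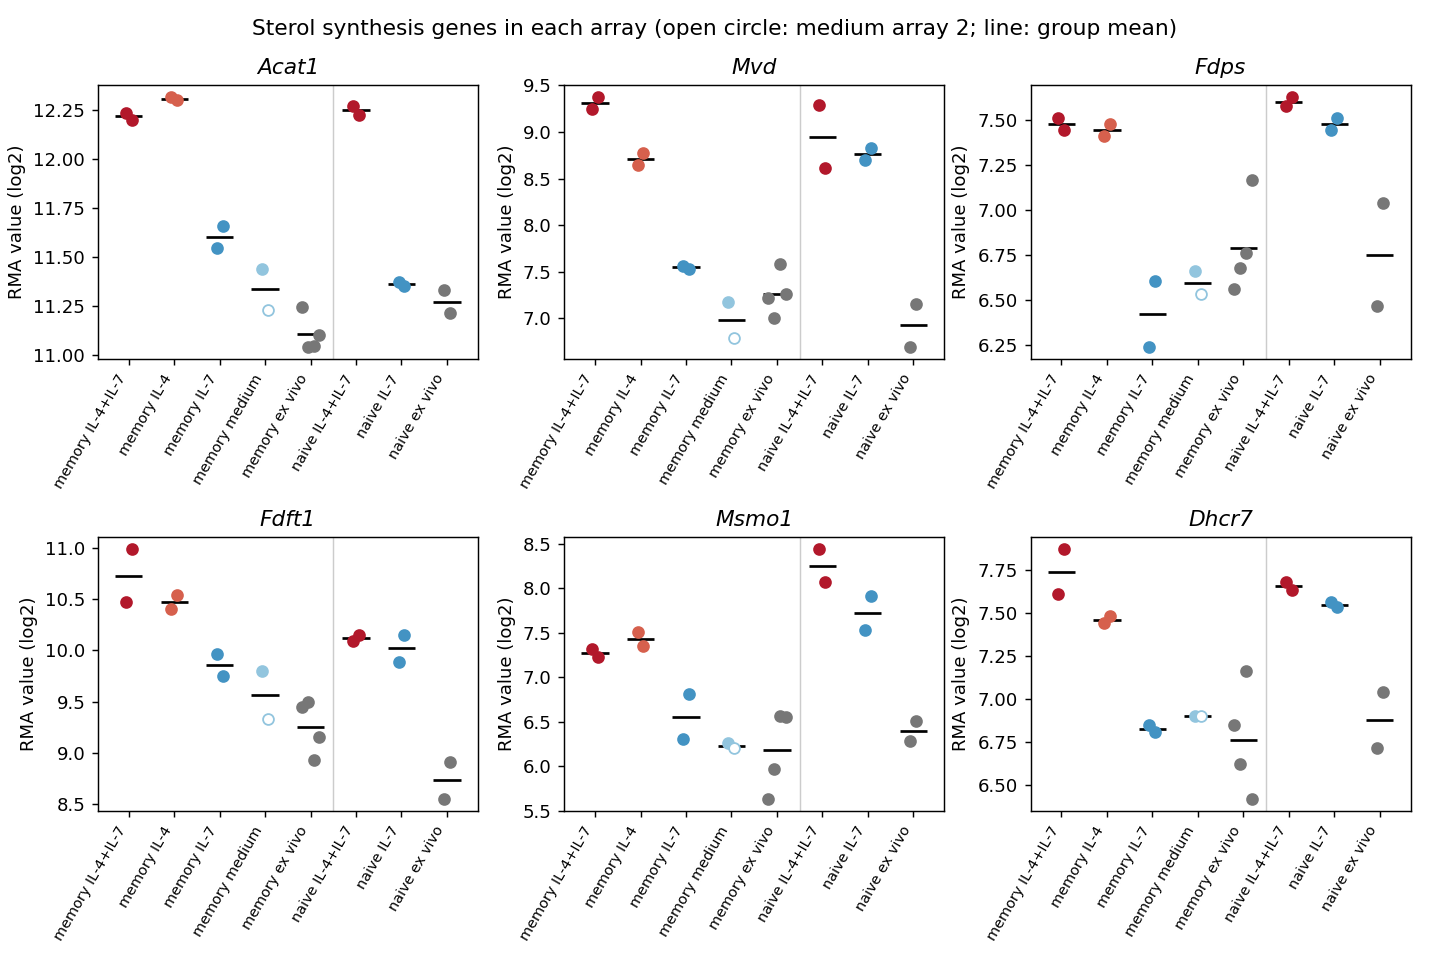
RMA level (log2) of sterol synthesis genes on every array, by group, with lines at group means and an open circle for medium array 2. For Mvd the memory arrays with IL-4 lie between 8.64 and 9.37 and the memory cultures without it between 6.79 and 7.56, while all naive cultures lie between 8.62 and 9.29.

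In memory cells without IL-7, IL-4 also raised 4 of the 34 genes and lowered none, where 1.94% of all genes tested passed (1.26% higher and 0.675% lower). Mvd rose by 1.72 (SE 0.24, adjusted p = 0.0015) and Acat1 by 0.98 (SE 0.14, adjusted p = 0.00169). Msmo1, which starts removal of the methyl groups of the sterol ring, rose by 1.20 (SE 0.28, adjusted p = 0.0456), and Ebp, the isomerase that moves a ring double bond, rose by 0.83 (SE 0.20, adjusted p = 0.0456). Of the 18 synthesis enzymes 17 had a difference above 0, as had 59% of all genes tested, and Mvk (-0.23) was the exception. Their median was 0.80, against 0.06 over all genes tested. The median was 0.73 without medium array 2, and 17 of 18 were again above 0, although Mvk was then at 0.45 and Hmgcs1 (-0.05) was the exception.

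Msmo1 read 7.32 and 7.23 in memory cells with IL-4 and IL-7 and 7.51 and 7.35 with IL-4 alone, against 6.31 and 6.81 with IL-7 and 6.26 and 6.20 in medium. Ebp read 11.60 and 11.52 in memory cells with IL-4 and IL-7 and 11.51 and 11.65 with IL-4 alone, against 10.71 and 11.16 with IL-7 and 10.95 and 10.55 in medium. For both genes every array with IL-4 was above every memory culture without it.

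Both medium arrays enter this comparison, and its calls other than Mvd and Acat1 moved with them. Without medium array 2, 4 genes rose, where 1.54% of all genes tested passed: Mvd (1.53, adjusted p = 0.0115), Acat1 (0.87, adjusted p = 0.0147), Idi1 (1.25, adjusted p = 0.0309), which makes dimethylallyl diphosphate, and Cyp51 (1.30, adjusted p = 0.0107), the lanosterol demethylase. Msmo1 (adjusted p = 0.172) and Ebp (adjusted p = 0.321) no longer passed. Without medium array 1 instead, 10 genes rose and 3 fell, where 17.2% of all genes tested passed (11.9% higher and 5.25% lower), and Cyp51 was lower with IL-4 (-0.88, adjusted p = 0.0189), so its direction turned on which medium array was kept. Cyp51 read 7.84 and 7.69 with IL-4 alone, against 6.47 and 8.65 on medium arrays 1 and 2. Without either memory IL-4 array, Msmo1 (0.194 to 0.278) and Ebp (0.179 to 0.30) missed the threshold, and both missed it, at 0.0536 to 0.0683, without 9 arrays outside the comparison. The myeloid marker Fcgr3 fell by 1.52 in the same comparison (adjusted p = 0.00438), and the mean level of the 8 myeloid markers on the array was 4.28 to 4.42 with IL-4 and 4.46 to 4.68 in medium, with 6 of 8 above the filter value. The part of other cells in these results was not tested.

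In naive cells kept in IL-7, IL-4 raised Acat1 alone of the 34 genes and lowered none, where 1.26% of all genes tested passed (0.879% higher and 0.378% lower). Acat1 read 12.27 and 12.23 with IL-4 and IL-7, against 11.37 and 11.35 with IL-7, a log2 difference of 0.89 (SE 0.14, adjusted p = 0.00377). Without naive IL-7 array 1 its adjusted p was 0.0545. The median difference of the 18 synthesis enzymes was 0.20, against -0.00 over all genes tested. Of the 18, 14 were above 0, as were 49.5% of all genes tested. The mean level of the 7 CD8 T cell markers on the array was 11.54 to 11.91 with IL-4 and IL-7 and 11.97 to 12.06 with IL-7, and that of the 8 myeloid markers 4.17 to 4.24 with IL-4 and IL-7 and 4.26 to 4.40 with IL-7. Their part in the result was not tested.

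Mvd was high in naive cells on both sides of this comparison, at 9.29 and 8.62 with IL-4 and IL-7, against 8.70 and 8.83 with IL-7. Its log2 difference was 0.19 (95% confidence interval -0.32 to 0.70), with overlapping groups. Fdps read 7.58 and 7.63, against 7.45 and 7.51 with IL-7, and Dhcr7 read 7.68 and 7.64, against 7.56 and 7.54. Msmo1 read 8.44 and 8.07 with IL-4 and IL-7, against 7.53 and 7.92 with IL-7, and Ebp 11.09 and 11.46, against 11.34 and 11.39. For all 4 of these last genes, the naive IL-7 arrays lay above the memory arrays with IL-7 alone.

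The difference between the memory and naive responses to IL-4 in IL-7 was tested directly, and none of the 34 genes passed, where 0.0726% of all genes tested passed (0.0436% higher and 0.029% lower). At an unadjusted p under 0.05 there were 7 genes, 5 of them synthesis enzymes, and 10.1% of all genes tested. The largest difference was that of Mvd, 1.58 (SE 0.34, 95% confidence interval 0.85 to 2.30, adjusted p = 0.171). Acat1 had a difference of -0.27 (SE 0.19, adjusted p = 0.637).

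**Figure D3:**
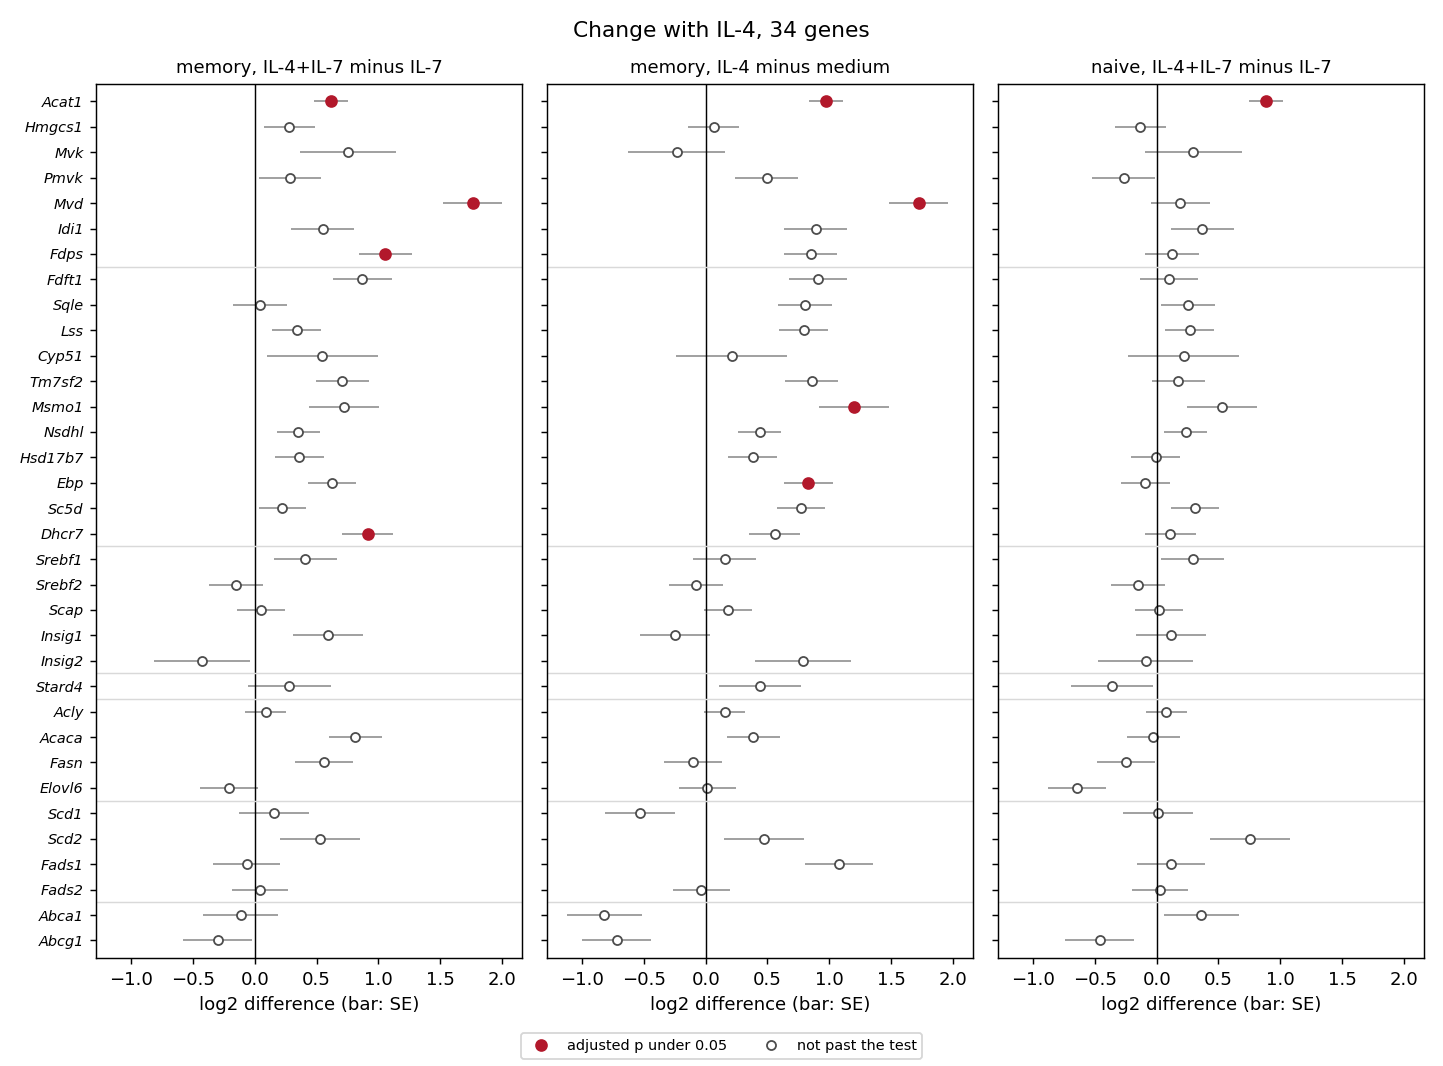
Log2 difference with IL-4 minus without (horizontal axis, bars are 1 SE) for the 34 genes in memory cells with IL-7, memory cells without IL-7 and naive cells with IL-7. Filled points passed at adjusted p under 0.05: 4, 4 and 1 genes, all above 0.

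Averaged over the 3 comparisons, IL-4 raised 11 of the 34 genes and lowered none, where 6.3% of all genes tested passed (3.87% higher and 2.43% lower). All 11 were among the 18 synthesis enzymes: Acat1 (0.83, adjusted p = 1.32e-05), Mvd (1.23, adjusted p = 5.84e-05), Idi1 (0.60), Fdps (0.68), Fdft1 (0.63), Lss (0.47), Tm7sf2 (0.58), Msmo1 (0.82), Ebp (0.46), Sc5d (0.43) and Dhcr7 (0.53), with SEs of 0.08 to 0.16. The average includes 2 memory comparisons and 1 naive comparison, so a call in it does not show a response in naive cells. The median of the 18 was 0.46, against 0.04 over all genes tested, and 0.52 against 0.03 without medium array 2.

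Of the 11, 5 passed in this average and in no single comparison. Idi1 read 8.92 and 8.89 in memory cells with IL-4 and IL-7 and 9.41 and 9.16 with IL-4 alone, against 8.57 and 8.14 with IL-7 and 8.04 and 8.75 in medium. Fdft1, which makes squalene, read 10.47 and 10.99 with IL-4 and IL-7 and 10.41 and 10.54 with IL-4 alone, against 9.97 and 9.76 with IL-7 and 9.80 and 9.33 in medium. In both genes all memory arrays with IL-4 were above all memory cultures without it. Tm7sf2, a sterol reductase, read 8.82 and 9.25 in memory cells with IL-4 and IL-7 and 8.73 and 9.04 with IL-4 alone, against 8.24 and 8.41 with IL-7 and 8.23 and 7.83 in medium. Lss, which closes the sterol ring, read 7.45 and 7.80 with IL-4 and IL-7 and 7.81 and 7.72 with IL-4 alone, against 7.29 on both IL-7 arrays and 6.80 and 7.14 in medium. Sc5d, a sterol desaturase, read 8.11 and 8.15 with IL-4 and IL-7 and 8.60 and 8.08 with IL-4 alone, against 7.76 and 8.06 with IL-7 and 7.56 and 7.59 in medium. The groups with and without IL-4 did not overlap in these 3 genes either, with the closest arrays, those of Sc5d, at 8.08 and 8.06. These 5 genes were picked by an average over the same arrays, so their separation is no further support.

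In naive cells Idi1 read 9.29 and 9.75 with IL-4 and IL-7, against 9.20 and 9.10 with IL-7, and Fdft1 10.09 and 10.15, against 9.88 and 10.16. Tm7sf2 read 8.95 and 8.72 with IL-4 and IL-7, against 8.58 and 8.74 with IL-7, Lss 7.95 and 7.98, against 7.73 and 7.66, and Sc5d 8.44 and 8.45, against 8.04 and 8.23. The groups overlapped for Fdft1 and Tm7sf2 and not for the other 3. The share of all genes tested with groups apart was not counted, so this is no support for a naive response.

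Acat1, Mvd, Fdps, Fdft1, Tm7sf2 and Msmo1 passed in the average in each of the 18 fits that left out 1 array. Dhcr7 missed without memory IL-4 and IL-7 array 2 (0.0518). The other 4 missed without 7 or 9 arrays each, all from cultured groups, with adjusted p of 0.0545 to 0.0855 for Idi1, 0.0548 to 0.0867 for Lss, 0.0509 to 0.117 for Sc5d and 0.0507 to 0.104 for Ebp. Without naive IL-7 array 1, memory IL-4 and IL-7 array 2 or memory IL-4 array 1, 7 genes passed. Without medium array 2, 12 genes rose, where 7.35% of all genes tested passed. Ebp missed (adjusted p = 0.0597), and Cyp51 (0.69, adjusted p = 0.00196) and Acaca (0.47, adjusted p = 0.0319) were added. The Gapdh 3' minus 5' difference was 2.81 to 3.10 on arrays with IL-4 and 2.67 to 3.36 on cultured arrays without it, leaving out medium array 2, so the groups overlapped. Of 6 myeloid markers tested, Fcgr3 alone passed in the average, where it fell by 0.93 (adjusted p = 0.000967), and the median of the 6 was -0.09. The part of myeloid cells was not tested.

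Of the 7 synthesis enzymes that did not pass in the average, Nsdhl, which removes ring methyl groups, was nearest (0.34, adjusted p = 0.0598), followed by Sqle, the squalene epoxidase (0.37, adjusted p = 0.116). Hmgcs1, which makes HMG-CoA, was high on every array, at 10.64 to 11.45, with an average IL-4 difference of 0.07 (0.03 without medium array 2). Mvk, Pmvk, Cyp51 and Hsd17b7 had average differences of 0.17 to 0.33. Leaving out medium array 2 gave 0.50 for Mvk, 0.09 for Pmvk, 0.69 for Cyp51 and 0.24 for Hsd17b7.

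None of the genes outside the 18 synthesis enzymes passed in any IL-4 comparison with all arrays in the main fit. With the mean of probe sets instead, Scd2 (0.29, limma adjusted p = 0.0430) and Abcg1 (-0.66, limma adjusted p = 0.0169) passed in the average. With the replicate number as a block, Scd2 passed there too (0.58, limma adjusted p = 0.0344). Among the regulators, Srebf1 read 11.02 and 10.99 in memory cells with IL-4 and IL-7 and 10.52 and 10.80 with IL-4 alone, against 10.47 and 10.73 with IL-7 and 10.63 and 10.38 in medium, an average difference of 0.29 (adjusted p = 0.350). Srebf2, the main sterol SREBP, had an average difference of -0.13 (SE 0.13), Scap 0.08 (SE 0.11), Insig1 0.15 (SE 0.16) and Insig2 0.09 (SE 0.22). With medium array 2 left out, the average was 0.05 for Scap, 0.30 for Insig1 and -0.15 for Insig2, so the direction of Insig2 turned with it. The arrays measure these transcripts and not the cut proteins. Stard4, which carries cholesterol between membranes, read 8.34 and 8.50 in memory cells with IL-4 and IL-7 and 8.85 and 8.56 with IL-4 alone, against 8.10 and 8.18 with IL-7 and 7.78 and 8.75 in medium, an average difference of 0.12 (SE 0.19), and of 0.28 without medium array 2.

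In fatty acid synthesis, Acly, which makes cytosolic acetyl-CoA, read 12.17 to 12.76 on all 18 arrays, with an average IL-4 difference of 0.11 (SE 0.10), and of 0.06 without medium array 2. Acaca, which makes malonyl-CoA, read 8.49 and 8.46 in memory cells with IL-4 and IL-7 and 8.17 and 8.41 with IL-4 alone, against 7.67 and 7.66 with IL-7 and 7.67 and 8.14 in medium. Its difference in IL-7 was 0.81 (adjusted p = 0.0738), and in naive cells it was -0.03 (adjusted p = 0.985). Fasn, the fatty acid synthase, read 8.64 and 8.92 in memory cells with IL-4 and IL-7, against 8.17 and 8.26 with IL-7 (0.56, adjusted p = 0.298), and Elovl6, an elongase, had an average difference of -0.28. Both efflux pumps had average differences below 0, Abca1 -0.19 (SE 0.18) and Abcg1 -0.49 (SE 0.16, adjusted p = 0.0981). These were -0.05 without medium array 2 for Abca1 and -0.32 for Abcg1 (adjusted p = 0.175), and in naive cells alone Abca1 had a difference of 0.36. For the desaturases the average differences were 0.58 for Scd2 (adjusted p = 0.0901), 0.38 for Fads1, 0.01 for Fads2 and -0.12 for Scd1, and without medium array 2 they were 0.63 for Scd2, 0.17 for Fads1, 0.06 for Fads2 and -0.02 for Scd1.

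IL-7 was tested in memory cells with and without IL-4. With IL-4, none of the 34 genes and 0 of all genes tested passed in limma (0%), with 286 of all genes and 2 of the 34 at an unadjusted p under 0.05. Without IL-4, again none of the 34 and 0 of all genes passed (0%), with 804 and 2 at an unadjusted p under 0.05. Mvd was 0.60 higher with IL-7 in the presence of IL-4 (95% confidence interval 0.09 to 1.11) and 0.56 higher in its absence (0.05 to 1.07). These intervals are for Mvd alone and are not adjusted for the number of genes tested, and Mvd did not pass in either comparison. The Mvd difference in the absence of IL-4 was 0.37 without medium array 2 (95% confidence interval -0.24 to 0.97). The median of the 18 synthesis enzymes was -0.02 with IL-4 and 0.19 without it (0.08 without medium array 2). The count without IL-4 was again 0 without medium array 2 and was 6 without medium array 1, where 16.3% of all genes tested passed.

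Cultured cells were also compared with the ex vivo state. No naive cells were cultured without IL-7, so for them the effects of culture and of IL-7 cannot be told apart. In naive cells in IL-7, 10 of the 34 genes rose and 4 fell, where 12.8% of all genes tested passed (7% higher and 5.8% lower). Of the 18 synthesis enzymes 9 rose and none fell: Mvd (1.84, adjusted p = 0.00119), Fdps (0.73), Fdft1 (1.29), Sqle (1.03), Tm7sf2 (0.94), Msmo1 (1.33), Ebp (0.84), Sc5d (0.64) and Dhcr7 (0.67). The median difference of the 18 was 0.62, against 0.07 over all genes tested. Of the 18, 16 were above 0, as were 58.9% of all genes tested. Fads1, a desaturase of polyunsaturated fatty acids, rose by 1.08, and the efflux pumps Abca1 and Abcg1, the SCAP anchor Insig1 and the desaturase Scd2 fell.

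Mvd read 8.70 and 8.83 in naive cells with IL-7, against 6.69 and 7.16 ex vivo, and Msmo1 7.53 and 7.92, against 6.28 and 6.51 ex vivo. Sqle read 9.62 and 9.15 with IL-7, against 8.41 and 8.30 ex vivo. Cultured and ex vivo arrays did not overlap for any of these 3. Abca1 read 4.90 and 4.36 in naive cells with IL-7, against 8.06 and 7.88 ex vivo, and fell by 3.35 (SE 0.30, adjusted p = 6.92e-05), the largest difference of the set in this comparison. Abcg1 read 8.09 and 7.68, against 9.43 and 9.67 ex vivo, and fell by 1.66 (adjusted p = 0.00376). Both pumps were thus at their highest naive levels ex vivo, on every array.

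Insig1 read 8.38 and 8.01 in naive cells with IL-7, against 9.02 and 9.47 ex vivo, and fell by 1.05 (adjusted p = 0.0286). Scd2 read 8.61 and 8.31, against 10.07 and 10.33 ex vivo, and fell by 1.74 (adjusted p = 0.00553). Fads1 read 8.60 and 8.44, against 7.42 and 7.46 ex vivo. These genes separated cultured from ex vivo arrays without overlap. Mvd and Abca1 passed in each of the 18 fits without 1 array, while the count was 8 and 5 without naive ex vivo arrays 1 and 2, and 6 and 3 without naive IL-7 arrays 1 and 2. It was 16 without medium array 2, where 20.1% of all genes tested passed. The Gapdh 3' minus 5' difference was 2.67 to 3.36 on cultured arrays other than medium array 2 and 2.07 to 2.69 on ex vivo arrays. That of Actb went the other way in naive cells, at 1.64 and 1.63 with IL-7 and 1.95 and 2.06 ex vivo. Fcgr3 fell by 0.99 (adjusted p = 0.0214). The mean level of the 8 myeloid markers was 4.26 to 4.40 in naive cells with IL-7 and 4.44 to 4.55 ex vivo, and that of the 4 platelet markers 5.13 to 5.26 with IL-7 and 4.94 to 4.99 ex vivo. Their part in the result was not tested.

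In memory cells in IL-7, 3 of the 34 genes rose and 9 fell relative to ex vivo memory cells, where 19.9% of all genes tested passed (11.1% higher and 8.85% lower). The 9 include Scd1, which was tested only because ex vivo memory arrays and medium array 2 passed the filter and is no support for a fall. Of the 18 synthesis enzymes Acat1 rose (0.50, adjusted p = 0.0131), and Mvk, the mevalonate kinase (-1.08, adjusted p = 0.0389), and Cyp51 (-1.62, adjusted p = 0.0132) fell. The median of the 18 was 0.04, against -0.05 over all genes tested. Insig2 (1.0) and Fads1 (1.33) rose, and Insig1 (-1.09), Acaca (-0.77), Fasn (-0.79), Scd1 (-0.74), Scd2 (-0.90), Abca1 (-1.68) and Abcg1 (-0.98) fell.

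Fads1 read 8.12 and 8.28 in memory cells with IL-7, against 6.91, 6.89, 6.79 and 6.87 ex vivo (adjusted p = 0.005). Abca1 read 5.22 and 5.32, against 6.94, 6.57, 6.75 and 7.56 ex vivo (adjusted p = 0.00435), and Abcg1 7.71 and 7.93, against 8.55, 8.73, 8.83 and 9.11 ex vivo (adjusted p = 0.0144). As in naive cells, the pumps were below and Fads1 above the ex vivo range on both arrays. Cyp51 read 7.01 and 6.70, against 8.22, 8.77, 8.34 and 8.57 ex vivo. Acaca read 7.67 and 7.66, against 8.36, 8.19, 8.55 and 8.65 ex vivo, and Fasn 8.17 and 8.26, against 8.83, 8.90, 9.0 and 9.29 ex vivo. Insig1 read 7.76 and 7.55, against 8.45, 8.62, 8.93 and 8.98 ex vivo. All 4 of these genes were below every ex vivo memory array in IL-7 culture.

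Scd2 read 8.25 and 8.15 in memory cells with IL-7, against 9.18, 8.32, 9.64 and 9.27 ex vivo, so that ex vivo array 2 lay close to the cultures. Scd1 read 3.55 and 3.44, against 4.38, 4.68, 3.65 and 4.20 ex vivo, at the low end of the scale. All 12 calls were lost without either memory IL-7 array (adjusted p of 0.0526 or more in these fits), so each rests on both of them. Mvk, Insig2, Scd1 and Scd2 also missed without single ex vivo memory arrays (0.0553 to 0.106). There were 13 calls without medium array 2, where 26.9% of all genes tested passed. The Gapdh 3' minus 5' difference was 3.36 and 2.91 with IL-7 and 2.07 to 2.62 ex vivo, without overlap. That of Actb overlapped, at 2.25 and 1.86 with IL-7 and 1.96 to 2.07 ex vivo. The part of RNA quality in these calls was not tested. Over the same comparison the B cell marker Ms4a1 fell by 1.43 (adjusted p = 0.0161) and the myeloid marker Cd68 by 1.16 (adjusted p = 0.0157). The mean level of the 5 B cell markers tested was 5.01 to 5.12 in IL-7, with 4 above the filter value, and 5.12 to 5.66 ex vivo, with 5 above it. That of the 8 myeloid markers was 4.40 to 4.6 in IL-7 and 4.53 to 4.77 ex vivo, with 6 above the filter value in both. The part of these cells in the result was not tested, and in bulk samples fewer cells of a type cannot be told apart from less RNA per cell.

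In memory cells in medium alone, none of the 34 genes and 0 of all genes passed with both arrays in limma (0%), with 7 of the 34 and 9.91% of all genes at an unadjusted p under 0.05. Without medium array 2, 2 rose and 6 fell, where 16.4% of all genes tested passed, and medium array 1 then stands alone and is assumed to vary like the other groups. Fads1 (1.09, adjusted p = 0.000573) and Insig2 (0.96, adjusted p = 0.0499) rose, and Cyp51 (-2.0, adjusted p = 4.86e-05), Abca1 (-1.55, adjusted p = 0.00247), Abcg1 (-1.07, adjusted p = 0.00486), Insig1 (-0.91, adjusted p = 0.0292), Mvk (-1.06, adjusted p = 0.0420) and Acaca (-0.76, adjusted p = 0.0301) fell. This comparison shares the ex vivo memory arrays with that in IL-7.

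**Figure D4:**
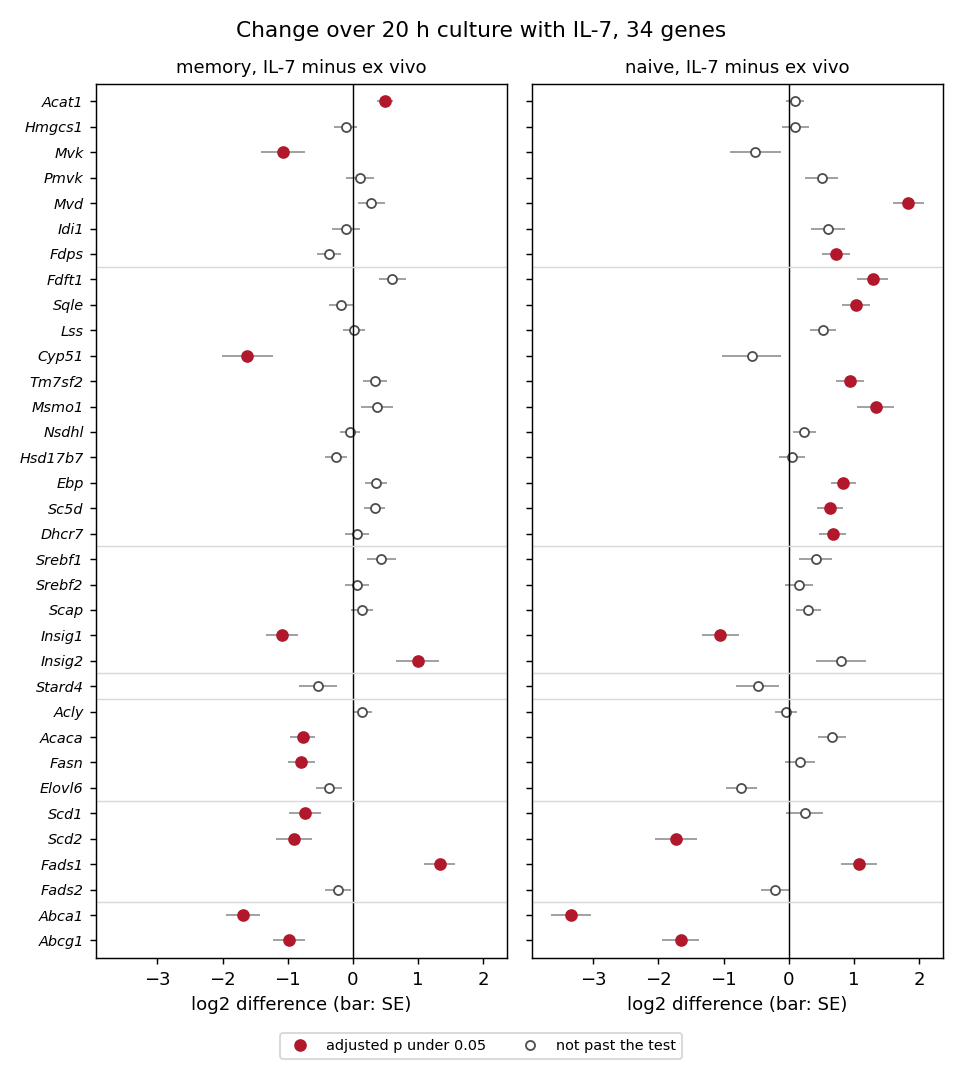
Log2 difference of culture in IL-7 minus ex vivo (horizontal axis, bars are 1 SE) for the 34 genes in memory and in naive cells. Filled points passed at adjusted p under 0.05: 3 above and 9 below 0 in memory cells, 10 above and 4 below 0 in naive cells.

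The difference between the memory and naive changes in IL-7 culture was tested after the other results were seen. None of the 34 genes passed with all arrays, where 0.0508% of all genes tested passed (0.00726% higher and 0.0436% lower), and 11 had an unadjusted p under 0.05, as had 10.4% of all genes tested. All 11 genes of the squalene to cholesterol steps had differences below 0, where 40.8% of all genes tested were above 0. The median of the 18 synthesis enzymes was -0.58, against -0.09 over all genes tested. The differences were -1.56 for Mvd (adjusted p = 0.0972), -1.44 for Acaca (adjusted p = 0.0949) and 1.66 for Abca1 (adjusted p = 0.147). These 3 passed without medium array 2 (adjusted p = 0.0323, 0.0230 and 0.0427), where 0.922% of all genes tested passed. Without medium array 1 there were also 3, and 1 without either naive IL-4 and IL-7 array.

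Memory and naive cells cultured in the same cytokines were set against each other, also after the other results were seen. In IL-7, 5 of the 34 genes were lower in memory cells and none higher, where 2.7% of all genes tested passed (1.27% higher and 1.43% lower): Mvd (-1.22, adjusted p = 0.0124), Fdps (-1.06, adjusted p = 0.0158), Msmo1 (-1.17, adjusted p = 0.0423), Acaca (-1.31, adjusted p = 0.00371) and Fasn (-1.01, adjusted p = 0.0347). Of the 18 synthesis enzymes 17 were below 0, where 43% of all genes tested were above 0. Their median was -0.42, against -0.05 over all genes tested. Acaca read 7.67 and 7.66 in memory cells, against 8.95 and 8.99 in naive cells, and Fasn 8.17 and 8.26, against 9.24 and 9.22. This comparison shares the memory IL-7 arrays with the IL-4 comparison, where the same arrays are the low side.

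With IL-4 and IL-7, 1 gene was lower in memory cells, Sqle (-0.92, adjusted p = 0.0319), and none higher, where 3.81% of all genes tested passed (1.61% higher and 2.2% lower). Sqle read 8.94 and 8.48 in memory cells, against 9.79 and 9.48 in naive cells. The median of the 18 was -0.03, against 0.03 over all genes tested, and Mvd read 9.25 and 9.37 in memory cells, against 9.29 and 8.62 in naive cells (0.36, adjusted p = 0.380). Sqle missed without memory IL-4 and IL-7 array 2 (0.354) or naive IL-4 and IL-7 array 1 (0.161). In the comparison in IL-7, the count was 1 without memory IL-7 array 1, 0 without memory IL-7 array 2, 1 without either naive IL-7 array and 3 without either memory IL-4 array. The red cell precursor markers, 2 of 4 on the array with 1 above the filter value, had a mean level of 5.20 to 6.71 in memory cells and 3.78 to 4.22 in naive cells over these 4 groups. Of 6 myeloid markers tested, Fcgr3 alone passed in IL-7, 1.23 higher in memory cells (adjusted p = 0.0149), and the median of the 6 was 0.04. Of 3 CD4 T cell markers tested, Zbtb7b passed in both comparisons, higher in memory cells. Their part was not tested.

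Ex vivo, none of the 34 genes other than Scd1 passed the test between memory and naive cells, where 1.93% of all genes tested passed (1.02% higher and 0.908% lower). At an unadjusted p under 0.05 there were 8 of the 34 genes and 17.2% of all genes tested. Scd1 (1.03, adjusted p = 0.0464) was tested only because ex vivo memory arrays and medium array 2 passed the filter, so its difference is a description. It read 4.38, 4.68, 3.65 and 4.20 in memory cells, against 3.25 and 3.15 in naive cells, near or below the filter value of 4.06, and did not pass without any 1 of 13 arrays, among them ex vivo memory arrays 1, 2 and 4 and both naive ex vivo arrays (0.0818 to 0.272). None of the 18 synthesis enzymes passed, with a median of 0.06, against 0.03 over all genes tested. With medium array 2 left out, 5 genes passed, where 4.39% of all genes tested did. Besides Scd1 these were lower in memory cells: Scd2 (-1.10, adjusted p = 0.0395), Fads1 (-0.57, adjusted p = 0.0209), Abca1 (-1.02, adjusted p = 0.0209) and Abcg1 (-0.75, adjusted p = 0.0260). Without medium array 1 there were also 5, and without ex vivo memory array 3 there were 2. For these 4 genes the naive ex vivo arrays lay above all ex vivo memory arrays. Ms4a1 was 1.55 higher in ex vivo memory cells (adjusted p = 0.0415), with mean B cell marker levels of 5.12 to 5.66 in memory cells and 4.73 in naive cells, and its part was not tested.

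**Figure D5:**
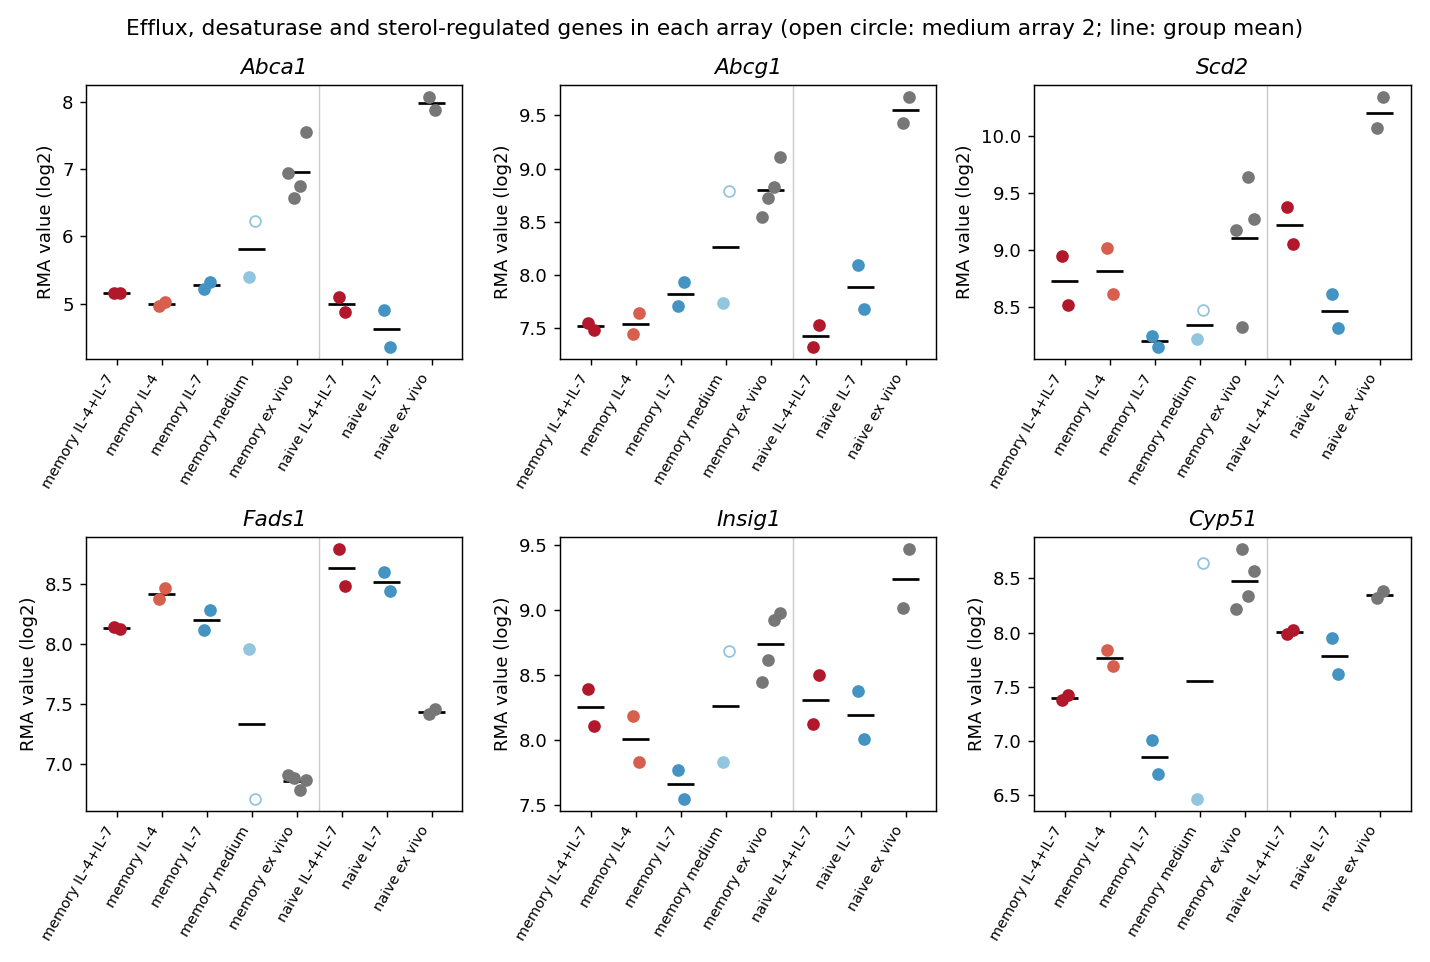
RMA level (log2) on every array, by group, of the efflux pumps Abca1 and Abcg1, the desaturases Scd2 and Fads1, Insig1 and Cyp51, with lines at group means and an open circle for medium array 2. Abca1 lies between 4.36 and 5.40 on all cultured arrays except medium array 2 (6.23), and between 6.57 and 8.06 ex vivo.

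Other probe sets were present for 25 of the 34 genes, 46 in all, and were compared in the same model. For Acat1, the other 2 probe sets rose in the IL-4 average by 1.24 (adjusted p = 2.22e-05) and 1.04 (adjusted p = 8.23e-05), and the other of Mvd by 1.17 (adjusted p = 0.000368). Of the other 3 of Fdft1, 1 rose (0.58, adjusted p = 0.00887) and 2 dim ones did not pass. For Abcg1 the other probe set, which reads 8.06 on average, fell in the IL-4 average (-0.84, adjusted p = 0.0136) and in both cultures (-1.44 in memory and -2.24 in naive cells), so that whether the pump's call in the IL-4 average is made depends on the probe set. The culture calls of Abca1, Scd2 and Fads1 rest on 1 probe set each: those of their other probe sets that were tested did not pass in either culture.

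Of 39 other lipid genes listed, 34 were tested. IL-4 raised 1 in memory cells with IL-7, Agpat3, an acyltransferase of phospholipid synthesis (1.06, SE 0.20, adjusted p = 0.0139), and none in memory cells without IL-7 or in naive cells, where 1.81% of all genes tested passed in the first, 1.94% in the second and 1.26% in naive cells. In the average over the 3 comparisons it raised 2, where 6.3% of all genes tested passed, Agpat3 (0.73, adjusted p = 0.0012) and Npc2, which moves cholesterol out of lysosomes (0.30, adjusted p = 0.0359), and lowered none. In IL-7 culture relative to ex vivo, 4 rose and 5 fell in memory cells, and 3 rose and 3 fell in naive cells, where 19.9% of all genes tested passed in memory cells and 12.8% in naive cells. The median difference of the list was 0.03 for IL-4 added to memory cells in IL-7 and 0.08 in the average, against 0.08 and 0.04 over all genes tested.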

How the data were processed

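The deposited values are log2 values made by the authors with RMA, per the submitters' processing notes, which name RMA and limma with no version. Each array has 1 value for each probe set. RMA fits each probe set over its probes and sets all arrays to 1 distribution, so differences are relative to the other genes on the array. The table holds 45101 probe sets, of which 34958 have 1 gene symbol in the platform annotation, 932 have several and 9211 none, and those with several or none were left out. Fits used limma 3.58.1 in R 4.3.3, as 1 model of 8 group means over 18 arrays (10 residual and 4.13 prior degrees of freedom), with two-sided moderated tests and Benjamini-Hochberg adjustment over 13770 genes. The fit was tested on simulated data. Of 14 comparisons, 3 were added after results were seen: the memory and naive difference in culture change, and memory against naive cells in IL-7 and in both cytokines. The genes, marker lists and other lipid genes were chosen with earlier results of these data known. Genes were given on every array when they passed in at least 1 IL-4 comparison or 2 others, or opened a role group. Alternatives were no filter, the mean of probe sets, centred arrays, a variance trend, the replicate number as a block, and each array left out. The number of arrays limits the precision.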

Additional observations from a re-analysis of the deposited data

Results flagged for a closer look

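Hsd17b7, a sterol ring enzyme, stood apart on 1 of 4 ex vivo memory arrays: array 3 read 8.33, against 8.08 to 8.10 on the other 3, a gap of 0.901 of the whole range. Only the ex vivo memory group had enough arrays for this check, and chance alone puts about 1 in 20 groups this far apart, with 34 genes examined. With its brightest probe set and all arrays, Hsd17b7 passed in no comparison. With the mean of its probe sets it fell in memory IL-7 culture relative to ex vivo (-0.54, limma adjusted p = 0.0246).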

How the results depend on the processing

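Among values that passed with all arrays or under an alternative, 1 turned its direction: Cyp51 for IL-4 in memory cells without IL-7, at -0.88 without medium array 1 and 1.30 without medium array 2, against 0.21 with all arrays. Over all single genes, comparisons and alternatives, 10216 values kept their direction and side of the threshold, 280 lost a call, 96 gained one, and 341 that passed in neither fit changed sign. With arrays centred on their medians, 2 genes passed for IL-4 in IL-7-treated memory cells and 2 without IL-7, 0 for memory against naive ex vivo, 3 in IL-7 and 0 in both cytokines. Centring moved the median of all genes by -0.10 (IL-4 in memory cells without IL-7), -0.13 and -0.18 (IL-7 culture of memory and naive cells), and 0.13 and 0.11 (memory against naive cells in IL-7 and in both cytokines). Without the filter, 0 passed ex vivo. With the mean of probe sets, 0 passed ex vivo, 3 in IL-7 and 2 in both cytokines. A variance trend moved no count of genes past 1.5 times.

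Sorted populations were split over cultures, per the design text. No label ties an array's number to a population, so same-numbered arrays were not treated as pairs. Their deviations from group means correlated at -0.03 to 0.45 over 20 memory pairs (11 over 0.1) and -0.13 to 0.51 over 6 naive pairs (4 over 0.1). In groups of 2 arrays the deviations mirror each other. Pairs between such groups therefore gave the same value for either number, and these counts are not of independent values. The correlation was 0.25 to 0.45 among the memory cultures with cytokine and 0.51 between the naive cultures. Which of these arrays came from the same population is not given, and the main fit treated all arrays as independent. With the replicate number as a block, 4 genes passed in the memory IL-7 culture (all genes 1446, against 2745 without the block), 3 for memory against naive ex vivo and 2 in both cytokines, and the other counts stayed within 1.5 times.

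Leaving out each array in turn gave counts of 1 to 6 for IL-4 in IL-7-treated memory cells (4 with all arrays), 2 to 13 without IL-7 (4), 0 to 1 in naive cells (1), 7 to 14 in the average (11) and 0 to 0 for the memory and naive difference (0). For IL-7 they were 0 to 6 without IL-4 (0) and 0 to 0 with it (0). For culture they were 0 to 8 in medium (0), 0 to 13 in memory IL-7 (12), 3 to 16 in naive IL-7 (14) and 0 to 3 for their difference (0). For memory against naive cells they were 0 to 5 ex vivo (1), 0 to 6 in IL-7 (5) and 0 to 2 in both cytokines (1). The cause of these shifts was not tested.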
